A study of Mus musculus with 5 samples.

Results

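The contacts described here join the Shh gene with Lmbr1, the gene that carries the ZRS in one of its introns. They were 292 of the 33306 fragment pairs that were counted in every library, and 31328 of those had both fragments in the Shh region. A pair was included where both fragments were listed under Shh and the midpoint of one lay in chr5:28737087-28821086 and that of the other in chr5:29549087-29717086 (mm9, NCBIM37). Position alone decided this, and no read count was used. The first interval, of 84 kb, holds Shh and the 3′ end of Rbm33. The second, of 168 kb, holds Lmbr1, the 3′ end of Rnf32 and the sequence just beyond the 5′ end of Lmbr1.

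Shh encodes a secreted signal that patterns the limb bud, where it is made by a group of cells at the distal posterior margin, the zone of polarising activity (ZPA). Its limb expression depends on the ZRS, an enhancer that lies far from Shh in intron 5 of Lmbr1. A topologically associating domain is a stretch of chromosome whose sequences meet each other more often than they meet their neighbours, and Shh and its enhancers share one.

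5C (chromosome conformation capture carbon copy) counts how often 2 HindIII fragments of the genome were cross-linked and then ligated, by sequencing a forward primer on one joined to a reverse primer on the other. The tissue came from wild-type CD1 mouse embryos at E11.5, and no group carried a transgene, deletion or treatment. Limb was whole limb buds of pooled embryos (2 biological replicates), so the ZPA cells that transcribe Shh were mixed with many cells that do not. Body (1 library) is labelled as multiple tissues and head (1 sample, 2 technical libraries) as neural and craniofacial tissue. Where 5 values stand together they are in the order limb replicate 1, limb replicate 2, body, head library 1 and head library 2. The libraries held 675954, 1714491, 1056071, 1048682 and 931061 reads.

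The Shh side held 15 fragments with a primer, 7 forward and 8 reverse, and the Lmbr1 side held 39, 19 forward and 20 reverse. A forward fragment can be read only with a reverse one, so 292 of the 585 combinations were measured and 293 were not. The paired fragments lay 752 to 974 kb apart. Primer fragments covered 62.9% of the Shh interval and 56.7% of the Lmbr1 interval. Fragments are called here by the numbers that the deposited tables give them, which rise from Shh towards Lmbr1.

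Annotation of the same build (GENCODE) placed Shh at chr5:28783355-28793641 on the minus strand and Lmbr1 at chr5:29556354-29704930, also on the minus strand. Fragment 145 holds exons 2 and 3 of Shh, and fragment 147 holds exon 1 and the annotated start. The HindIII site that ends fragment 147 lies 68 bases from that start, and the next fragment with a primer, 149, begins after a further 348 bases. The proximal upstream sequence of Shh is therefore split between fragment 147 and a stretch that no primer reads. Intron 5 of Lmbr1 (chr5:29619490-29650341, 30.9 kb) held 10 fragments, which covered 70.4% of it. The position of the ZRS inside the intron was not given in the sources used here, and the intron as a whole stands for it.

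The sequences below show that split and both ends of the fragments that led the reads: 143 on the Shh side, 426 on the Lmbr1 side and 431 in intron 5. They were read from the NCBIM37 genome. Capitals mark the HindIII site at which a fragment ends, and the upstream region is written towards the Shh start.

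Shh upstream region, chr5:28793642-28793891, minus strand: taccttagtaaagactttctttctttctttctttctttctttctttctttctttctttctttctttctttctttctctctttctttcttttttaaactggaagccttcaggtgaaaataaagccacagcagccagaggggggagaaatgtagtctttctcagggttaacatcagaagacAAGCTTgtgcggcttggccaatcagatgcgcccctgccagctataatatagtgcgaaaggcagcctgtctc
Fragment 143, left end, chr5:28770664-28770729, plus strand: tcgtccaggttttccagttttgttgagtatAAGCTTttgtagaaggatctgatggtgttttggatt
Fragment 143, right end, chr5:28780531-28780596, plus strand: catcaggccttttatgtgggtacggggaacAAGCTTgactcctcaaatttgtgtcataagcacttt
Fragment 426, left end, chr5:29607843-29607908, plus strand: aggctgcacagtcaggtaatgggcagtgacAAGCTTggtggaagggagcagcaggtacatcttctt
Fragment 426, right end, chr5:29613376-29613441, plus strand: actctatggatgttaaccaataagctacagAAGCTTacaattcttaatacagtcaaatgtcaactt
Fragment 431, left end, chr5:29626282-29626347, plus strand: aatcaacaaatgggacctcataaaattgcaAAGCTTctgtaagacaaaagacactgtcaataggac
Fragment 431, right end, chr5:29628565-29628630, plus strand: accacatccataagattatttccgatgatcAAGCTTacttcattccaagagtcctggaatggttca

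As a whole, the Shh and Lmbr1 fragments were read together in every library, several times more often than fragments elsewhere in the region at the same separation. The 292 pairs took 5798 reads in limb replicate 1, 0.858% of the library (Wilson 95% interval 0.836 to 0.880%). They took 15595 reads in limb replicate 2, 0.910% (0.895 to 0.924%), and 7090 reads in body, 0.671% (0.656 to 0.687%). In the head libraries they took 9143 reads, 0.872% (0.854 to 0.890%), and 7170 reads, 0.770% (0.753 to 0.788%). The body library gave the smallest share and limb replicate 2 the largest, with head library 1 between the limb replicates. The limb mean was 0.884% ± 0.0367 (SD, n = 2), against 0.671% in body and 0.824% in head with both libraries summed. An exact two-sided permutation test over the 4 samples gave p = 0.333, the smallest that this design allows. Intervals treat every read as independent and leave out variation between samples. Reads of PCR products are not independent molecules, so the intervals can be too narrow even for counting error.

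The expected value of a pair was the mean of all primer pairs of the Shh region in the same 28-kb bin of separation. The ratio of observed to expected reads was 3.01, 3.12, 3.80, 2.77 and 2.38. Body thus had the smallest share of reads on these pairs and the highest ratio, with both head libraries below both limb replicates. The limb mean of 3.06 ± 0.0782 (SD, n = 2) lay between body and head, at 2.59 (exact permutation test, p = 1). Unread pairs numbered 42, 39, 25, 71 and 120, fewest in body. Head library 2, with 41.1% of the pairs unread, stood apart from the other libraries, and its values are given separately throughout.

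A block of the same size and separation was placed at each 28-kb step along the region, which gave 27 blocks with the one described here. The Shh and Lmbr1 block ranked 1 by observed over expected reads in limb replicate 2 and 2 in the other libraries. The block above it was in each case the one shifted by 28 kb in the direction from Shh to Lmbr1, with 3.09, 3.91, 2.81 and 2.56 in limb replicate 1, body and the head libraries. The shift in the opposite direction gave 2.12, 2.17, 2.69, 2.20 and 1.81 in the order used above. The median of the other 26 blocks lay between 0.719 and 0.847. The highest block was thus this one or the next, which overlaps it, in every library. Usp22, a gene on chromosome 11 whose primers were in the same reaction, gives the background between chromosomes. Over 83 pairs of a Shh-side with a Usp22 fragment the mean was 0.422, 0.988, 0.193, 0.747 and 1.39 reads a pair, against 19.9, 53.4, 24.3, 31.3 and 24.6 reads a pair with Lmbr1. The ratio of these means ran from 17.7 in head library 2 to 126 in body. Over 215 pairs of an Lmbr1-side with a Usp22 fragment the mean was 0.405, 0.777, 0.340, 0.791 and 3.61 reads a pair, so the ratio was 6.79 in head library 2 and 39.6 to 71.5 in the others.

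**Figure D1:**
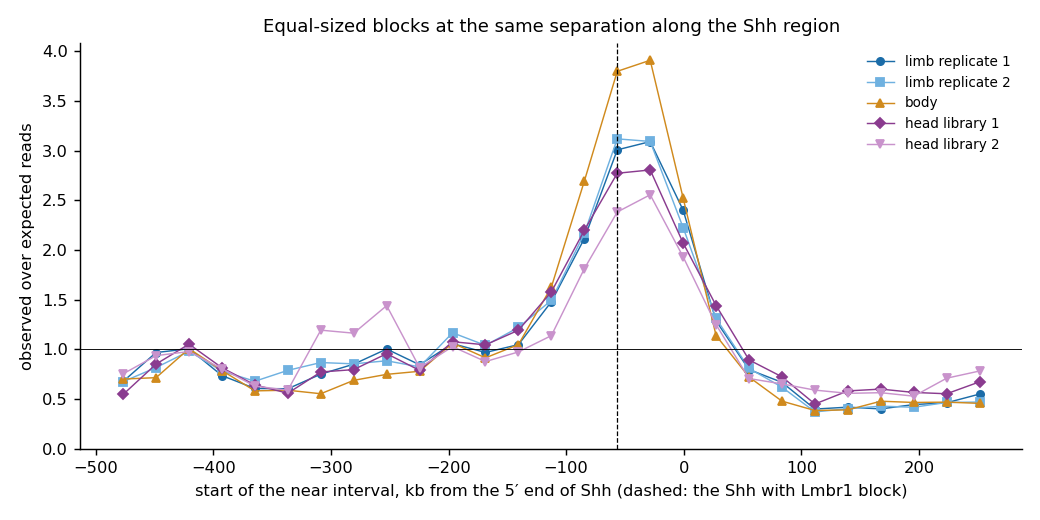
Observed over expected reads (vertical axis) of the 27 equal-sized blocks, by the start of their interval nearer to the Shh end of the region in kb from the 5′ end of Shh (horizontal axis); each line is a library and the dashed line marks the block of Shh with Lmbr1. The libraries stand at 2.38 to 3.80 at that block, and 4 of the 5 are slightly higher at the next step, where the values run from 2.56 to 3.91. Neighbouring blocks overlap.

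No single Shh-side fragment carried the contact, and the fragment at the Shh start was not the most read. All 15 were read with Lmbr1 in every library, and 5 or 6 of them were needed to reach 50% of the reads in any library. The leader was fragment 143 (chr5:28770697-28780563), which lies 3′ of Shh between the gene and Rbm33. It took 11.3%, 11.9%, 18.8%, 13.4% and 12.9% of the reads of the 292 pairs. It ranked first in limb and body. Fragment 133, at the 3′ end of Rbm33, led in head library 1 with 13.6%, and fragment 140, in the sequence between Rbm33 and Shh, led in head library 2 with 15.1%.

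The gene itself was read through fragments 145 and 147, 2 of the 15 fragments and 13.4% of the pairs. Together they took 17.1%, 14.7%, 12.8%, 15.8% and 9.97% of the reads. The 95% interval lay above their part of the pairs in both limb replicates and head library 1, held it in body and lay below it in head library 2. The intervals of the 2 technical head libraries, 15.1 to 16.6% and 9.30 to 10.7%, thus lay on opposite sides. They are narrower than the spread between libraries of 1 sample, and primers differ, so they do not test enrichment. Fragment 145, with exons 2 and 3, took 11.1%, 11.54%, 11.1%, 12.4% and 6.42%. Fragment 147, with exon 1 and the start, took 5.98%, 3.18%, 1.64%, 3.46% and 3.56%. Limb replicate 1 was the highest and body the lowest for fragment 147, and limb replicate 2 lay below both head libraries. Just upstream of the gene, fragment 149 took 9.49%, 9.12%, 8.08%, 8.30% and 8.90%, the narrowest range of these 4 leading or gene-proximal fragments.

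The remaining fragments fell into well-read and poorly read ones on both sides of the gene. On the 3′ side, 134 took 0.874 to 1.85% and 139 took 1.39 to 5.57%, while 131 took 4.11 to 7.14% and 132 took 5.53 to 9.05%. Fragment 144, between 143 and the gene, took 2.43 to 4.93%. On the 5′ side, 151, 152 and 154 each took between 4.04 and 11.45%, and 155 took 0.697 to 1.86%. Some neighbours with primers of opposite kinds, such as 133 with 134 and 154 with 155, differed several-fold in all libraries, while others, such as 151 with 152, were closer.

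**Figure D2:**
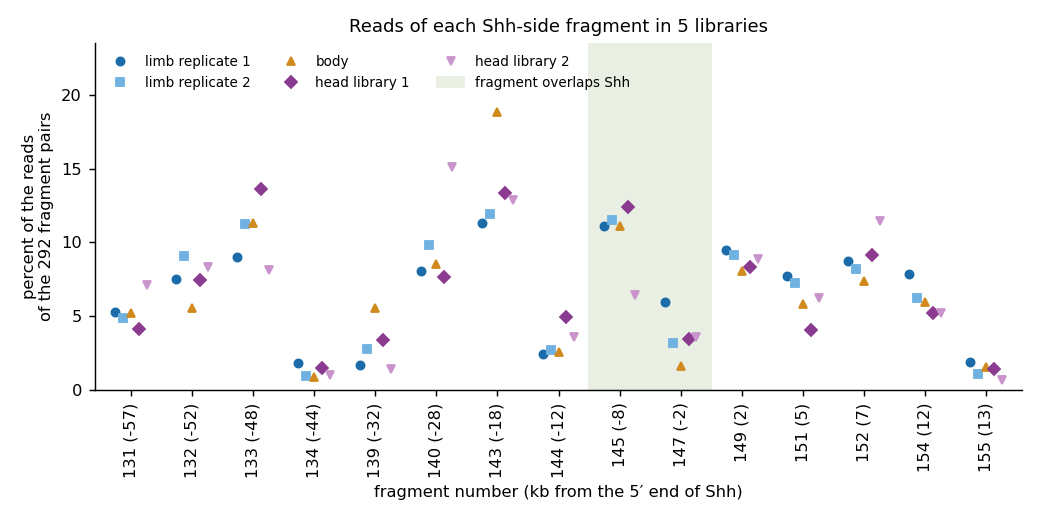
Percent of the reads of the 292 fragment pairs (vertical axis) taken by each of the 15 Shh-side fragments (horizontal axis, number and kb from the 5′ end of Shh, negative towards Rbm33); each marker is 1 library and the shaded fragments overlap Shh. Fragment 143 is highest in both limb libraries and in body, and fragment 147 stays at 5.98% or less.

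How often a fragment is read depends on its primer as well as on its contacts. Across the 15 fragments, the share of reads with Lmbr1 and the share of all reads of the region had Spearman correlations of 0.67, 0.82, 0.66, 0.79 and 0.84 in the 5 libraries (the points share the library and their partners' primers). Across the 39 Lmbr1-side fragments they ran from 0.44 to 0.63. A fragment's reads of the region include those with the other side, so these correlations do not separate its primer from its contacts. A multiplicative fit of forward primer, reverse primer and separation over the region was therefore used as a second expectation, for separations of at least 84 kb. Primer pairs that stand alone, with at least 100 reads and 20 times any neighbour within 2 primers on each side in 2 or more libraries, distort such a fit. There were 8, none among the 292 pairs, but 3 used the primer of a fragment described here. The pair of fragments 140 and 260 had 33102, 34778, 375, 15337 and 48707 reads, and the others involved 458 and 407. The fit was designed on all pairs, and the fit without these 8 was put first here only after the values of both had been seen. The choice matters. With all pairs kept the whole block stood at 1.15, 1.36, 2.33, 1.46 and 0.945 times the expectation, with ranks 11, 7, 1, 3 and 14 among the 27 blocks. Without the 8 it stood at 1.79, 1.89, 2.35, 1.91 and 1.67, with ranks 1, 1, 1, 2 and 2. Fragment 140 itself was at 0.16, 0.31, 2.06, 0.30 and 0.23 with all pairs kept. Corrected values below are without the 8 unless all pairs are named, and body, where these pairs were little read, changed least.

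After this correction the highest means over the 4 samples were at the gene and beside it, though single libraries differed. Fragment 144, next to the 3′ end of Shh, had the highest mean over the 4 samples, with 2.18, 3.51, 3.19, 3.73 and 3.55 times the reads that its primer predicts. Fragment 147, poorly read in the raw counts, came next with 2.50, 2.66, 3.11, 2.39 and 2.60, and 149 followed with 2.26, 2.34, 2.66, 2.43 and 2.06. Fragment 145 had 2.34, 2.23, 2.68, 2.60 and 1.43. These 4 neighbours span the gene and both of its ends, and their limb means were 2.84 ± 0.94, 2.58 ± 0.11, 2.30 ± 0.05 and 2.29 ± 0.08 (SD, n = 2) for 144, 147, 149 and 145. The SD of 144 is wide enough that its order against the other 3 is not settled in limb. Fragments farther off were as high in some libraries. Fragment 155, upstream, had 1.79, 2.67, 3.29, 1.95 and 0.94 and led in body, and 134, between Rbm33 and Shh, had 2.54, 2.06, 1.61, 1.61 and 1.19 and led in limb replicate 1. Nor is the order the same with all pairs kept. There 149 came first (4.15, 3.24, 2.69, 3.15 and 4.33) and 145 next (4.36, 3.12, 2.71, 3.38 and 3.03), ahead of 143 and 151, while 144 was at place 5 and 147, the fragment of the Shh start, at place 7 of 15.

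The lowest corrected values were those of the Rbm33 fragments 132 (1.26, 1.55, 1.52, 1.32 and 1.23) and 133 (1.36, 1.55, 2.00, 1.85 and 1.21). Of the 15 fragments, 14 were above 1 in all 5 libraries, the exception being 155 in head library 2. With all pairs kept 12 of the 15 were above 1 in all 5 libraries, and the lowest were 140 and 132. High values at the gene also appeared without any fit, in the share of a fragment's own reads across the region that fell on Lmbr1. Fragments 145, 147 and 149 had the highest mean shares over the 4 samples. They had 19.6%, 23.7% and 17.7% in limb replicate 1 and 18.4%, 13.96% and 15.9% in body. Only in limb replicate 1 were they the highest together. Fragment 144 led in limb replicate 2 with 20.7%, and 143 was above 147 in body with 15.6%. In head library 1, 144 (18.7%) was above 147 (17.9%). In head library 2, 145 (15.0%) was below 144 (16.9%) and 143 (16.7%). The median fragment of the 15 gave 12.7% in limb replicate 1 and 7.01% in body.

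**Figure D3:**
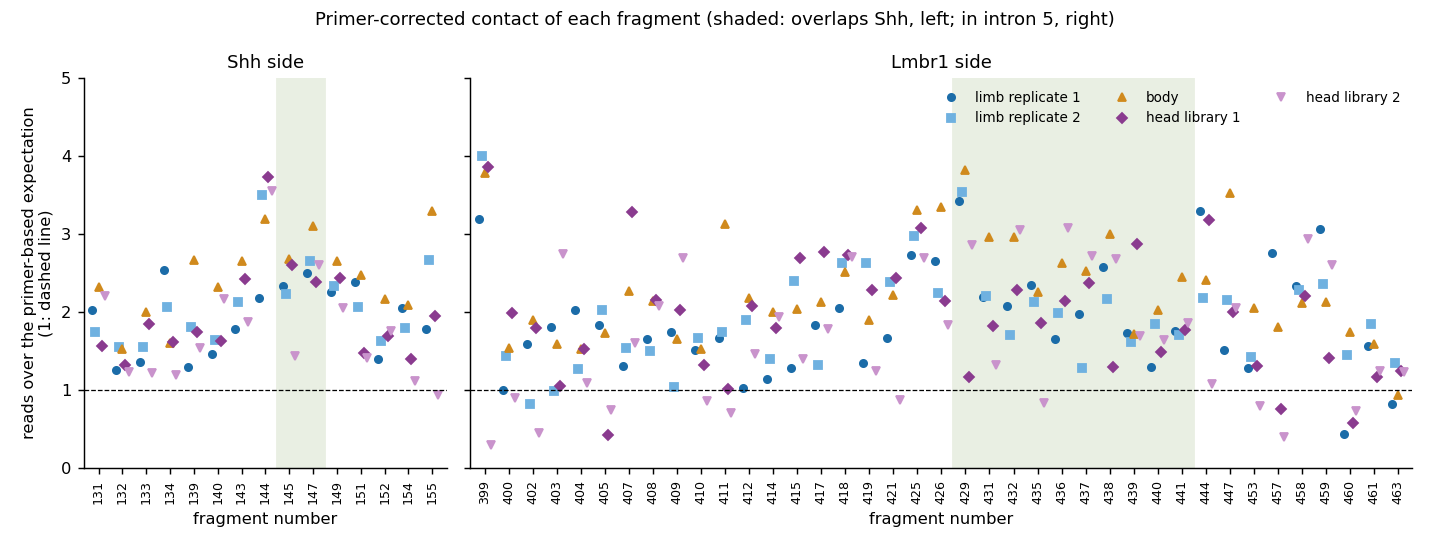
Reads of each fragment over the value expected from its primer, its partners' primers and the separation (vertical axis), for the 15 Shh-side fragments (left) and the 39 Lmbr1-side fragments (right); markers are libraries, the dashed line is 1, and shading marks fragments that overlap Shh or lie in intron 5 of Lmbr1. On the left, 144 and 147 have the highest means and 155 is highest in body, and 26 of the 39 fragments on the right are above 1 in all libraries, against 18 with all pairs kept in the fit. The values plotted leave out the 8 pairs that stand alone.

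On the Lmbr1 side the reads were spread more thinly, with a broad rise over the middle of the gene. The most-read fragments were 426 in intron 9, then 418 (exons 10 and 11), and then 431, 441, 435 and 437, all in intron 5. Fragment 426 (chr5:29607876-29613408) took 6.74%, 6.53%, 12.9%, 5.51% and 5.01% of the reads. It thus led in limb replicate 1 and in body, and its share in body was far above that of any other library. Fragment 418 took 4.92%, 5.55%, 6.95%, 6.55% and 7.48% and led in both head libraries. In all libraries except body, where 7 fragments sufficed, 11 fragments were needed to reach 50% of the reads.

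Intron 5, with the ZRS, took more reads than its part of the pairs in every library. Its 10 fragments are in 25.7% of the pairs and took 34.7% of the reads in limb replicate 1 (Wilson 95% interval 33.5 to 35.9%) and 31.4% in limb replicate 2 (30.7 to 32.1%). Body gave 34.2% (33.1 to 35.3%), head library 1 gave 31.8% (30.8 to 32.7%) and head library 2 gave 35.5% (34.4 to 36.6%). The limb replicates spanned most of this range, from 31.4 to 34.7%, and body lay inside it. Head library 1 was also inside the range of the limb replicates, and head library 2 was just above it.

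Within the intron, fragment 431 took 5.35%, 6.68%, 7.60%, 4.32% and 3.71% of the reads, and fragment 441 took 4.76%, 4.73%, 8.04%, 5.30% and 4.95%. Fragments 435 and 437 took 5.97%, 5.07%, 4.95%, 5.64% and 2.09%, and 4.92%, 2.57%, 4.60%, 4.18% and 3.85%. Fragment 439 took 1.89 to 4.62%, and the reverse fragments 429, 432, 436, 438 and 440 each took 0.722 to 5.97%. The 5 forward fragments of the intron carried 70.1%, 72.3%, 79.1%, 75.7% and 50.9% of its reads, so in all but head library 2 the primers of one kind led.

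The correction for primers took away most of the order inside Lmbr1. As a group, the intron 5 fragments had 2.03, 1.89, 2.53, 1.96 and 1.99 times the primer-based expectation. The 20 fragments between the intron and the 3′ end of the gene had 1.79, 1.94, 2.37, 2.11 and 1.57, and the 5 between the intron and the 5′ end had 1.98, 2.05, 2.75, 2.03 and 1.72. The intron was above the 3′ part of the gene in limb replicate 1, body and head library 2 and below it in limb replicate 2 and head library 1. With all pairs kept the intron had 1.67, 1.69, 2.53, 1.76 and 1.28, and was above the 3′ part (1.75, 1.93, 2.37, 2.11 and 1.53) in body alone. Body had the highest value in all 3 groups. Single intron 5 fragments reached 3.43, 3.55, 3.82, 1.17 and 2.86 (429) but rested on 66 to 230 reads there.

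At the far end the corrected contact was lower as a group, but not in every fragment. The 4 fragments beyond the 5′ end of Lmbr1 together had 1.29, 1.68, 1.55, 1.14 and 1.31, below the 3 groups inside the gene in each library. With all pairs kept this did not hold, since the group between intron 5 and the 5′ end, which includes fragment 458, fell to 0.29, 0.41, 2.52, 0.51 and 0.19. Fragment 459 alone had 3.07, 2.37, 2.13, 1.41 and 2.61, and the low group value came from 460, 461 and 463. The raw share of the 4 was 13.3%, 15.8%, 7.90%, 8.68% and 10.99%. Both limb replicates were above body and both head libraries. Fragments 459 and 463 made up most of the difference from body. Fragment 459 took 5.23%, 4.44%, 1.78%, 1.85% and 2.85%, and fragment 463 took 4.16%, 5.48%, 1.16%, 3.75% and 4.34%. Limb and head overlapped for 463 but not for 459, where 1 pair weighed heavily. The pair 154 with 459 held 52.8% and 37.7% of the reads of 459 in limb replicates 1 and 2. In body it held 39.7%, so its weight was not particular to limb. In head library 2 that pair had 0 reads. Fragment 461 took 3.28%, 3.99%, 3.12%, 2.36% and 2.55%, also with both limb replicates above the other libraries. Elsewhere on the Lmbr1 side, 405 and 458 also had both limb replicates above the other libraries, whereas 418, 425 and 441 had both below. On the Shh side, 149, 151 and 154 had both limb replicates above, and the leader 143 had both below. Limb thus parted from the other libraries in both directions, and not only at the far end. How many fragments of the whole region do so was not counted. Fragment 457, in intron 1, was almost unread, with 2, 0, 4, 2 and 1 reads over its 8 pairs. These were at or near the floor of 3 reads in each library. Over the whole Shh region it had only 37, 1, 90, 99 and 82 reads.

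**Figure D4:**
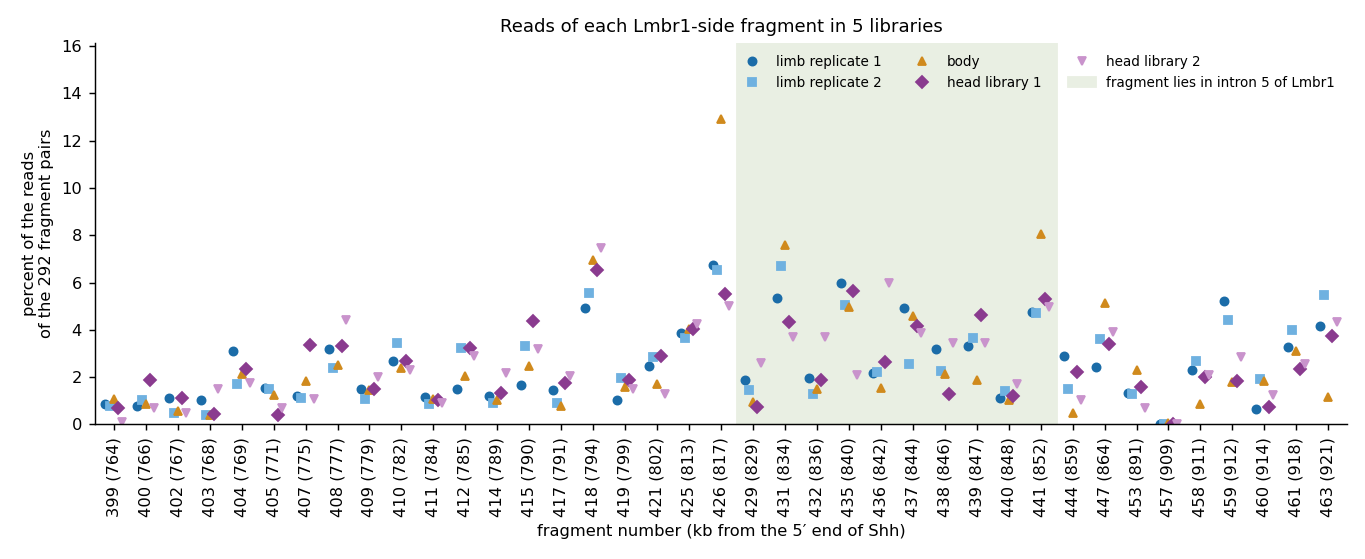
Percent of the reads of the 292 fragment pairs (vertical axis) taken by each of the 39 Lmbr1-side fragments (horizontal axis, number and kb from the 5′ end of Shh); each marker is 1 library and the shaded fragments lie in intron 5. Fragment 426 reaches 12.9% in body, and the shaded fragments take 31.4 to 35.5% of the reads together.

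Single fragment pairs varied far more between libraries than either side did. A fragment sums 19 or 20 pairs on the Shh side and 7 or 8 on the Lmbr1 side. The median pair had 14, 41, 16, 19.5 and 4 reads, and how much of the variation is counting error was not tested. To reach 50% of the reads took 51, 53, 45, 47 and 35 pairs, and the most-read pair held 2.06 to 3.58%. The most-read 10% of the pairs held 35.0%, 33.5%, 38.9%, 35.8% and 44.4%, whereas the median of the other 26 blocks was 43.2 to 69.1%. By this measure the block was among the least concentrated, with ranks of 21 to 27 among the 27. The blocks were not thinned to equal reads, and this one had more reads a pair than most. Counting error raises the measure where reads are few, so these ranks do not show how diffuse the contact was. Of the 292 pairs, 128 were read in all 5 libraries and 6 in none, a count of 0 that allows up to 3 reads in each library.

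The pair with the highest mean interaction frequency (reads per 1000 library reads) joined the leaders of both sides, 143 and 426. It was read 109, 156, 254, 138 and 75 times. As interaction frequency this was 0.161, 0.0910, 0.241, 0.132 and 0.0806, so it was highest in body and higher in limb replicate 1 than in limb replicate 2. The pair 145 with 426, which joins exons 2 and 3 of Shh to intron 9, was read 99, 281, 156, 113 and 0 times. The pair 154 with 459, which joins fragments just upstream of Shh and of Lmbr1, was read 160, 261, 50, 35 and 0 times. It was the most-read pair of limb replicate 1 and had rank 4 in limb replicate 2, rank 36 in body and rank 103 in head library 1.

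The other 7 of the 10 highest pairs were 143 with 418, 431 and 435, 133 with 426 and 441, 149 with 418, and 140 with 463. Fragment 143 was in 4 of the 10, and 3 of the 10 ended in intron 5. Of these 10 pairs, 7 were read in all 5 libraries. No pair was among the first 10 in all 5 libraries, 1 was in 4 of them, and 18 of the 31 pairs that reached the first 10 anywhere did so in 1 library.

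Shh and intron 5 met directly in 10 pairs, 5 from each of fragments 145 and 147. They are 3.42% of the pairs. They took 5.47% (Wilson 95% interval 4.91 to 6.08%) of the reads in limb replicate 1 and 4.78% (4.45 to 5.12%) in limb replicate 2. The values were 4.16% (3.72 to 4.65%) in body, 4.63% (4.21 to 5.08%) in head library 1 and 2.78% (2.42 to 3.18%) in head library 2. The intervals of limb replicate 2, body and head library 1 overlapped, and head library 2 was the lowest. The most-read was 145 with 431, with 27, 236, 88, 73 and 53 reads. The 4 after it were 145 with 435 (84, 159, 59, 67 and 5 reads), with 441 (79, 60, 77, 99 and 35 reads), with 437 (54, 68, 40, 78 and 77 reads) and with 439 (26, 158, 20, 69 and 0 reads). The limb replicates thus disagreed on their order, with 435 first in replicate 1 and 431 first in replicate 2. The 5 pairs of the Shh start (fragment 147) with the intron were sparse, and the most-read, with 436, had 20, 23, 1, 6 and 9 reads. Corrected for primers, the 10 pairs together had 2.41, 2.11, 2.42, 2.33 and 1.60 times the expectation, and 3.68, 2.60, 2.44, 2.76 and 2.67 times with all pairs kept.

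**Figure D5:**
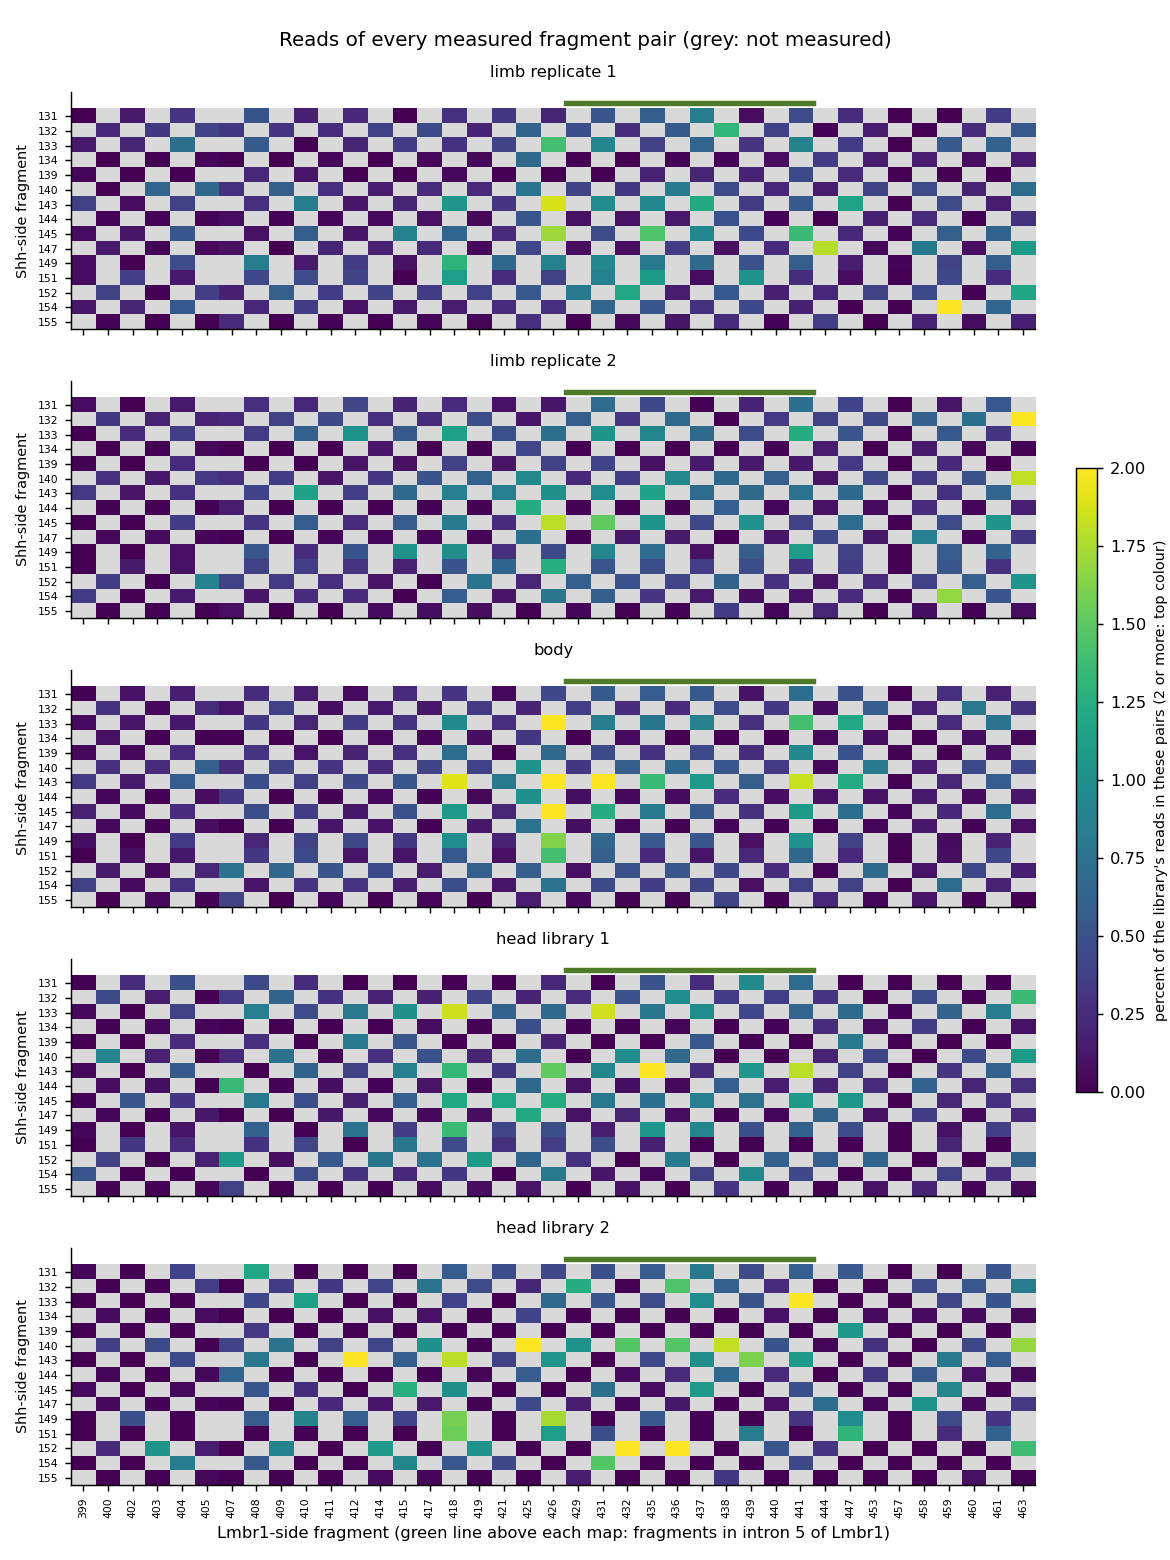
Percent of each library's reads in the 292 pairs (colour, with 2% or more in the top colour) for every measured combination of a Shh-side fragment (vertical axis) and a Lmbr1-side fragment (horizontal axis); grey combinations have primers of the same kind and were not measured, and the green line marks intron 5. Rows such as 143 and columns such as 426 recur between libraries, while the brightest single cells differ.

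This gap between fragments and pairs also showed in the likeness of the libraries, given as a description over points that share primers. Between the limb replicates Spearman's correlation was 0.93 over the 15 Shh-side fragments, 0.85 over the 39 Lmbr1-side fragments and 0.67 over the 292 pairs. Between the technical head libraries it was 0.81, 0.71 and 0.35. Limb replicate 2 and body, from different tissues, reached 0.93, 0.78 and 0.75. The technical libraries of the head sample were thus less alike over the pairs than limb replicate 2 and body were. The limb replicates shared 2 of their first 10 pairs, and the head libraries shared 1.

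Length went with the raw share more than with the corrected value. Fragment length had Spearman correlations of 0.32 to 0.53 with the raw share on the Shh side and of 0.09 to 0.47 on the Lmbr1 side. With the corrected value they were -0.03 and -0.04. These pooled values hide opposite signs. For forward and reverse fragments apart they were -0.46 and 0.26 on the Shh side, and 0.33 and -0.30 on the Lmbr1 side. GC content had 0.45 with the corrected value on the Shh side and -0.17 on the Lmbr1 side. Both kinds of primer pair were not read alike. The 152 pairs of a reverse Shh-side with a forward Lmbr1-side fragment held 63.6%, 65.0%, 71.9%, 64.4% and 56.3% of the reads, and the 140 of the opposite kind held the rest. After correction these 2 kinds stood at 1.93 and 1.58 in limb replicate 1 and at 1.58 and 1.80 in head library 2.

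CTCF is a DNA-binding factor found at many domain borders. Its known consensus, with any base allowed at its degenerate positions, was searched on both strands of every primer fragment. It occurred in 42 of the 354 fragments of the region (11.9%, at 0.0441 matches per kb). Of the Shh-side fragments, 143 and 144 held 1 match each (0.0367 per kb), and of the Lmbr1-side fragments 410, 441 and 457 did (0.0315 per kb). Fragment 143 was the most-read fragment of the Shh side and 144 the highest after correction without the 8 pairs, but at place 5 with all pairs kept. Fragment 441 was among the most-read of the Lmbr1 side, but its mean corrected value of 1.93 had rank 19 there. Fragment 410 had a mean corrected value of 1.45, at rank 34. Fragments with a match were thus not high as a set. Fragment 457 was almost unread across the whole region, so its contact with Shh cannot be judged. A match describes the letters only, and binding was not measured.

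The question whether any of these contacts differs between limb, where the ZRS is active, and the other tissues was put to edgeR's quasi-likelihood test, fitted over all features with the Benjamini-Hochberg adjustment at 0.05. Limb replicates 1 and 2 were set against body and head (both libraries summed). Body and head are different tissues, so the difference between them enters the spread that limb was tested against. No fragment pair and no fragment of either side passed the threshold, which does not show that limb is the same as the other tissues. Of 17531 fragment pairs tested in all, 0% were called, and 3.55% had an unadjusted p under 0.05. Of the 292 pairs, 216 passed the filter on low counts, 0 were called and 3 had an unadjusted p under 0.05. DESeq2 called 0 of the 286 it tested, and 3 had an unadjusted p under 0.05. By edgeR 105 of the 216 were higher in limb and 111 lower, with a median log2 fold change of -0.06 against -0.09 over all pairs tested.

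The 3 pairs, all higher in limb, were 152 with 429, 154 with 459 and 151 with 435, each from upstream of Shh. The pair 152 with 429, which ends in intron 5, was read 47, 95, 6, 26 and 0 times (log2 fold change 2.53, SE 0.85, unadjusted p = 0.0244 and adjusted p = 1.00 by edgeR). For 154 with 459 the log2 fold change was 2.22 (SE 0.78) and for 151 with 435 it was 2.22 (SE 0.91), the latter from 63, 75, 16, 16 and 0 reads. Head library 2 had no read on any of the 3, and head library 1 had 16 to 35. The leading pair, 143 with 426, had a log2 fold change of -0.83 that turned to 0.23 with body left out.

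For fragments, the reads of each Shh-side fragment were summed over the Lmbr1 interval, and all fragments of the region were treated likewise over intervals of that size. Of 3661 such sums 0% were called, and 2.9% had an unadjusted p under 0.05. Of the 15 Shh-side fragments 0 were called and 0 had an unadjusted p under 0.05, by edgeR and by DESeq2. The fragment of the Shh start, 147, had the lowest p, with 347 and 496 reads in limb, 116 in body, and 316 and 255 in head (log2 fold change 0.89, SE 0.43, unadjusted p = 0.0568, adjusted p = 0.995 by edgeR). The most-read fragment, 143, had -0.44 (SE 0.43), and 8 of the 15 were higher in limb and 7 lower. The SE of the log2 fold change over the 15 ran from 0.33 to 0.61.

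For the Lmbr1-side fragments, summed over the Shh interval, 0% of 6914 such sums were called, and 3.1% had an unadjusted p under 0.05. Of the 38 that passed the filter, 0 were called and 1 had an unadjusted p under 0.05, by edgeR and by DESeq2. This was fragment 459 (chr5:29705291-29706210), just beyond the 5′ end of Lmbr1, with 303 and 692 reads in limb, 126 in body, and 169 and 204 in head (log2 fold change 1.30, SE 0.39, unadjusted p = 0.00431, adjusted p = 0.999 by edgeR). Fragment 426 had -0.45, and 0.48 with body left out. Of the 38, 19 were higher in limb and 19 lower. With the head sample left out, 1 of the 38 was called, fragment 463 beyond the 5′ end of Lmbr1, with a log2 fold change of 2.00 (SE 0.44, adjusted p = 0.0186 by edgeR), read 241 and 854 times in limb and 82 times in body. That fit, with body as the only non-limb library, called 294 of 6961 sums in all. Scaling by library totals alone moved the median of all features from between -0.09 and -0.02 to 0.14 in all 3 tables, and the Shh-side fragments higher in limb from 8 to 12 of 15. Under that scaling 130 of the 216 pairs were higher in limb and 86 lower, and 26 of the 38 Lmbr1-side fragments were higher and 12 lower.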

How the data were processed

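The authors cut cross-linked chromatin of E11.5 CD1 embryos with HindIII, amplified 5C libraries by PCR, sequenced them on an Ion PGM and processed the reads through a Torrent 5C pipeline on Galaxy. They deposited raw counts, the reads on each forward and reverse fragment pair, without normalisation and on mm9, and tool versions are not given in the sources used here. The deposited distance column was not used. Counts were divided by the library's summed counts and multiplied by 1000 (interaction frequency). The primer-based expectation was an iterative proportional fit, designed on all pairs and shown first without isolated contacts, a choice made after both were seen (numpy 2.4.6, pandas 2.3.3, scipy 1.17.1, Python 3.11.15). Limb was compared with body and head by edgeR 4.0.16 (TMM, filterByExpr) in R 4.3.3, with DESeq2 1.42.0 as an alternative. edgeR's common coefficient of variation was 1.06 for pairs and 0.427 and 0.505 for Shh-side and Lmbr1-side fragments. The scripts were tested on simulated data. Head libraries are technical, so head counts as 1 sample. Members, fragment lists and tests were chosen with earlier results of these data known. Named were every Shh-side fragment, the 6 most-read Lmbr1-side fragments and those in intron 5, the 10 pairs with the highest mean interaction frequency, the 5 highest pairs of Shh with intron 5 and whatever passed the edgeR threshold. Fragments 405, 425, 457, 458, 459, 460, 461 and 463 and the 3 pairs with the lowest p are given beyond that rule, chosen after their values were seen. Fragment 407 is named for a pair that stands alone, and 410 for its match to the CTCF consensus. Alternatives were capping at the 99th percentile of a separation bin, isolated contacts left out, other separation bins and denominators, means or medians per pair, thinning, other primer fits and leaving out each library.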

Additional observations from a re-analysis of the deposited data

How the results depend on the processing

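Limits are set by depth and by the number of samples: many single pairs had under 20 reads, body and head are 1 sample each, and the head libraries differ. Observed over expected reads kept the order body, limb, head under each alternative run. They were 3.78, 5.15 and 3.04 in limb, body and head with the expectation taken without these pairs, and 2.94, 3.43 and 2.66 with capping at the 99th percentile. With isolated contacts left out head was 2.65, and with either head library alone it was 2.38 to 2.77. The share of library reads was 0.929%, 0.580% and 0.903% with capping, 0.983% in limb and 0.920% in head without isolated contacts, 0.844% in head over the reads of the Shh region, and 0.770 to 0.872% in either head library. The share on the fragments of Shh was 14.03% in limb and 15.0% in head by the median per pair, 13.9% in head with capping and 9.97 to 15.8% in either head library. The share on intron 5 was 35.8% in limb by the median per pair and 31.8 to 35.5% in either head library. The number of pairs that hold 50% of the reads stayed within 1.5 times under each alternative, thinning included. The primer-corrected value of the whole block was the least stable. It was 1.25, 2.33 and 1.14 in limb, body and head with isolated contacts kept, 1.84 in limb and 1.80 in head without them, and 1.79, 2.22 and 1.77 with capping. It was 3.95 in body and 1.02 in head with primer factors from the other pairs, and 0.609, 1.44 and 0.612 with primer totals and no separation term. It was 0.945 to 1.46 in either head library. In the fit with primer totals and no separation term limb and head fell below 1, and the cause was not tested. By edgeR, 0 members were called in each table under each alternative except 1 Lmbr1-side fragment without the head sample. Without body the log2 fold changes of fragment 426 and of its pair with 143 reversed, to 0.48 and 0.23, with any single library left out their lowest values were -0.48 and -1.33, and without the head sample they were -1.03 and -1.46. No paired analysis was possible because the labels give no replicate number that limb shares with body or head.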
